A study of Rattus norvegicus with 24 samples.

Results

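The aldo-keto reductases described here are 9 genes of the 13337 named on the array: Akr1c2, Akr1c13, Akr1c12l1 and Akr1c15 of the Akr1c group, Akr1b8 and Akr1b1 of the Akr1b group, Akr1a1, and Akr7a2 and Akr7a3 of the Akr7a group. They were found by gene symbol and carried 10 of the 22523 probes. The 4 Akr1c genes had been chosen by their high day 28 values in recellularized liver constructs, and the other 5 because they belong to the same family. The day 28 levels of the 4 are therefore given as a description without a test, and so is every other comparison of theirs that involves a construct. In the data, day 28 lay above both earlier days in the 4 Akr1c genes, although Akr1c15 stayed below its level in liver. None of the other 5 passed the test between day 15 and day 28, and they are called here by their family rather than by a late increase.

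Aldo-keto reductases are soluble enzymes that use NADPH or NADH to reduce aldehydes and ketones to alcohols. Those of the 1C group act on steroids, prostaglandins, bile acid precursors and xenobiotic carbonyls, those of the 1B group on sugars and lipid-derived aldehydes, and those of the 7A group on dialdehydes such as the one formed from aflatoxin. Liver, which handles steroids and reactive aldehydes for the whole body, is one of their main sites, and the rat Akr1c genes lie side by side in a cluster in which neighbours have closely similar sequences.

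Rat liver cells, isolated with collagenase and freed of dead cells by spinning in Percoll, were perfused into the caudate lobes of rat livers from which the resident cells had been removed with SDS and DNase, and the constructs were kept under flow of Williams' Medium E with fetal bovine serum, insulin and dexamethasone. There were 4 constructs of day 2, 4 of day 15 and 3 of day 28, compared with cadaveric liver whose RNA was taken after harvest (n = 4) and with hepatocytes whose RNA was taken straight after isolation (n = 4). All animals were Sprague Dawley rats, an outbred stock, with no genetic change stated. The rats had been anesthetized and given heparin before surgery, and no experimental treatment was applied beyond the culture medium. Neither the age, the sex nor the donor of a given sample is given in the sources used here. Because the sources do not say that samples of a group came from separate donors, the p-values measure only the spread between these samples.

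RNA was read on RatRef-12 BeadChips, on which a probe's brightness is given here as a log2 intensity. Values near 4.5 are background, and a probe was called detected on an array when its detection p-value was under 0.05. The 19 samples took 24 arrays, since RNA of 5 constructs was run as technical duplicates, and the share of probes detected ran from 42.1% to 50.7%. Hepatocyte genes were present in every group, with 8 of 9 markers on the array detected on all arrays. Of 8 tested, 5 were lower and 0 higher than liver on day 2 (25.2% and 33.6% of all genes). On day 15, 3 were lower and 0 higher (25.6% and 30.5%), and on day 28 again 3 and 0 (26.6% and 28.8%). In bulk RNA, fewer cells of a type and less RNA per cell cannot be told apart. Of the 10 member probes 9 were detected on at least 3 arrays and were kept. The exception was the second probe of Akr1c12l1 (ILMN_1360278), which was detected on 0 of 24 arrays, with group means between 4.41 and 4.53, so this gene rests on ILMN_1372695, detected on 24 of 24.

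Before the results, one feature of the samples needs to be stated. RT1-A2 and RT1-CE16, class I histocompatibility genes whose alleles differ between rats, were bright in some samples and at or near background in others of the same group of liver or hepatocytes, and both were undetected on all 5 arrays of day 28. Their values are given beside Akr1c2 further on, because the donor of each sample is not given.

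The promoters of the 4 Akr1c genes are shown because these genes lie in one cluster and differ in how much upstream sequence they share. In the RefSeq annotation of GRCr8 the order along chromosome 17 is Akr1c2, Akr1c1, AKR1C3l1, Akr1c12l1, Akr1c13, Akr1c19, Akr1c12, Akr1c3, Akr1c14 and Akr1c15, leaving out pseudogenes and a noncoding RNA, so that of the 4 only Akr1c12l1 and Akr1c13 are next to each other. Promoters of 300 bases, 250 before and 50 after the annotated start, were given for 8 of the 9 members, all but Akr1b1. Akr1c13 (chr17:70894386-70894685, plus strand) and Akr1c12l1 (chr17:70847504-70847803, plus strand) follow with the bases in capitals that are not matched between the pair in a global alignment with free ends.
Akr1c13: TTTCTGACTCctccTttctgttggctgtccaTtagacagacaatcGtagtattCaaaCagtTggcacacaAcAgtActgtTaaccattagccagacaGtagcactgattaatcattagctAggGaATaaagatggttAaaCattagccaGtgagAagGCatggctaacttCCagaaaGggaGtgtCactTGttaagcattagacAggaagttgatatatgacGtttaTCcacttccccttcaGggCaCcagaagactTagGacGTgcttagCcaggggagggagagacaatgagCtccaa
Akr1c12l1: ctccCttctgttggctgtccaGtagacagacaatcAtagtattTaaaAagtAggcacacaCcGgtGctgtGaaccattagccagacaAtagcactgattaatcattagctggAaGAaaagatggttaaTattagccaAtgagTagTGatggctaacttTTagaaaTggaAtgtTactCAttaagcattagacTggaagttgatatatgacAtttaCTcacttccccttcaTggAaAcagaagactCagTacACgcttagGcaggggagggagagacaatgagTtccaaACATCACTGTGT
Of 288 aligned bases in this pair 249 were identical, or 86.5%. The other 5 pairs among the 4 genes had 57.1% to 62% identical bases. The promoters of Akr1c2 (chr17:70717831-70718130, minus strand) and Akr1c15 (chr17:71117908-71118207, minus strand) follow, with capitals marking the core of the antioxidant response element.
Akr1c2: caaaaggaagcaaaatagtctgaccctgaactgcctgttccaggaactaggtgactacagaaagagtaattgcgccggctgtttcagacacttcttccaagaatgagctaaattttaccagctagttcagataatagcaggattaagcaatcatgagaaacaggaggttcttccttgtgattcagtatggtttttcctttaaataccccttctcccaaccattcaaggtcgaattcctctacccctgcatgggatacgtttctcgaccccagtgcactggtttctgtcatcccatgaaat
Akr1c15: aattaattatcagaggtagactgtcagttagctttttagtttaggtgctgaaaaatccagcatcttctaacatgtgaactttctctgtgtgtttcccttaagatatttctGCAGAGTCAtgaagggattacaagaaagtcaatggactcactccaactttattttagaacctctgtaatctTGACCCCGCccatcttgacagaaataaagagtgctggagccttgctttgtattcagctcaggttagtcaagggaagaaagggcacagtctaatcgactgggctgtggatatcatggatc
Both strands of the 8 promoters were searched for 3 motifs. TGACNNNGC, the core of the antioxidant response element bound by NRF2 with small MAF proteins, occurred in 1 of 8, that of Akr1c15, in 2 places that start 140 and 69 bases before the annotated start (12.1% of 33469 promoters hold it). GCGTG, the core of the element bound by the aryl hydrocarbon receptor, occurred in Akr1c12l1, Akr7a2 and Akr7a3 (29.7% of all promoters). TATAAA occurred in 0 of 8 (14.2%). No 2 matches overlapped. A match of letters is a description of the window, not a binding site.

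Akr1c2 went from background or close to it on day 2 and day 15 to a high level on day 28. The gene carries the name of a human hydroxysteroid dehydrogenase that reduces active androgens and neurosteroid precursors. It measured 4.59, 4.69, 4.95 and 4.70 in the constructs of day 2. On day 15 it measured 4.45, 4.77, 5.27 and 4.97. On day 28 it measured 9.48, 10.26 and 9.51. The 3 day 28 constructs stood more than 4 log2 units above every earlier construct, and detection followed the same course, with 1 of 6 arrays on day 2, 3 of 5 on day 15 and 5 of 5 on day 28. The difference between the means was 4.89 from day 15, 5.02 from day 2 and 4.54 from cadaveric liver on the log2 scale. No fold is given, since the gene was not detected on all arrays of the groups compared with day 28. With no background correction and arrays not averaged the differences were 3.75, 3.80 and 3.53.

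Cadaveric liver held little Akr1c2, at 4.96, 4.71, 5.49 and 5.68, detected on 2 of 4 arrays. The hepatocytes did not form one level. Replicates 1 and 2 measured 10.69 and 10.14, as high as day 28, whereas replicates 3 and 4 measured 5.61 and 5.38, within the range of liver. The order of the group means was therefore day 28, hepatocytes, liver, day 15 and day 2, and every neighbour in that order overlapped the next.

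Akr1c13 and Akr1c12l1, relatives of the hydroxysteroid dehydrogenases, were expressed in all groups and followed one course at different brightness, which is not comparable between probes. Akr1c13 measured 9.53, 9.82, 9.82 and 9.50 in liver. It measured 9.55, 9.10, 9.28 and 9.19 on day 2 and 8.46, 8.24, 8.74 and 8.21 on day 15. It measured 10.69, 12.03 and 10.73 on day 28. Every day 28 construct was above every liver and every earlier construct, and every day 15 construct was below every day 2 construct. Akr1c12l1 measured 7.07, 7.42, 7.36 and 7.09 in liver. It measured 7.15, 6.59, 6.77 and 6.72 on day 2 and 6.14, 5.99, 6.43 and 5.62 on day 15. It measured 7.86, 9.28 and 8.12 on day 28. Here too day 15 was lowest and day 28 did not overlap liver, and replicate 2 of day 28 was the highest of the 3 for both genes, as it was for Akr1c2.

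From day 15 to day 28 the mean of Akr1c13 differed by 2.74 (6.67-fold) and that of Akr1c12l1 by 2.37 (5.19-fold). From day 2 to day 28 the differences were 1.87 and 1.61. Against liver they were 1.48 and 1.18. From day 2 to day 15 they had moved the other way, with differences of -0.87 and -0.76. The 4 genes were chosen by their day 28 values, so nothing is read from how many of them were higher then. Wt1, a marker of mesothelial cells, passed the test between day 15 and day 28 with a difference of 1.14. It was undetected in liver, in hepatocytes and on day 2. Msln, the other such gene on the array, was undetected in hepatocytes and in all construct groups. Their summed intensity was 118 to 285 in liver and 43 to 46 in hepatocytes. In constructs it was 42 to 48 on day 2, 45 to 58 on day 15 and 79 to 88 on day 28. The sums of liver and of day 28 therefore rest on different genes. Against liver, day 28 gave 1 higher and 1 lower (28.8% and 26.6% of all genes). From day 15 to day 28, 2 of 7 stellate cell and myofibroblast markers were higher and 0 lower (4.26% and 4.54% of all genes). Of 6 Kupffer cell and macrophage markers 0 were higher and 1 lower. The part of these cells in the Akr1c values was not tested.

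**Figure D1:**
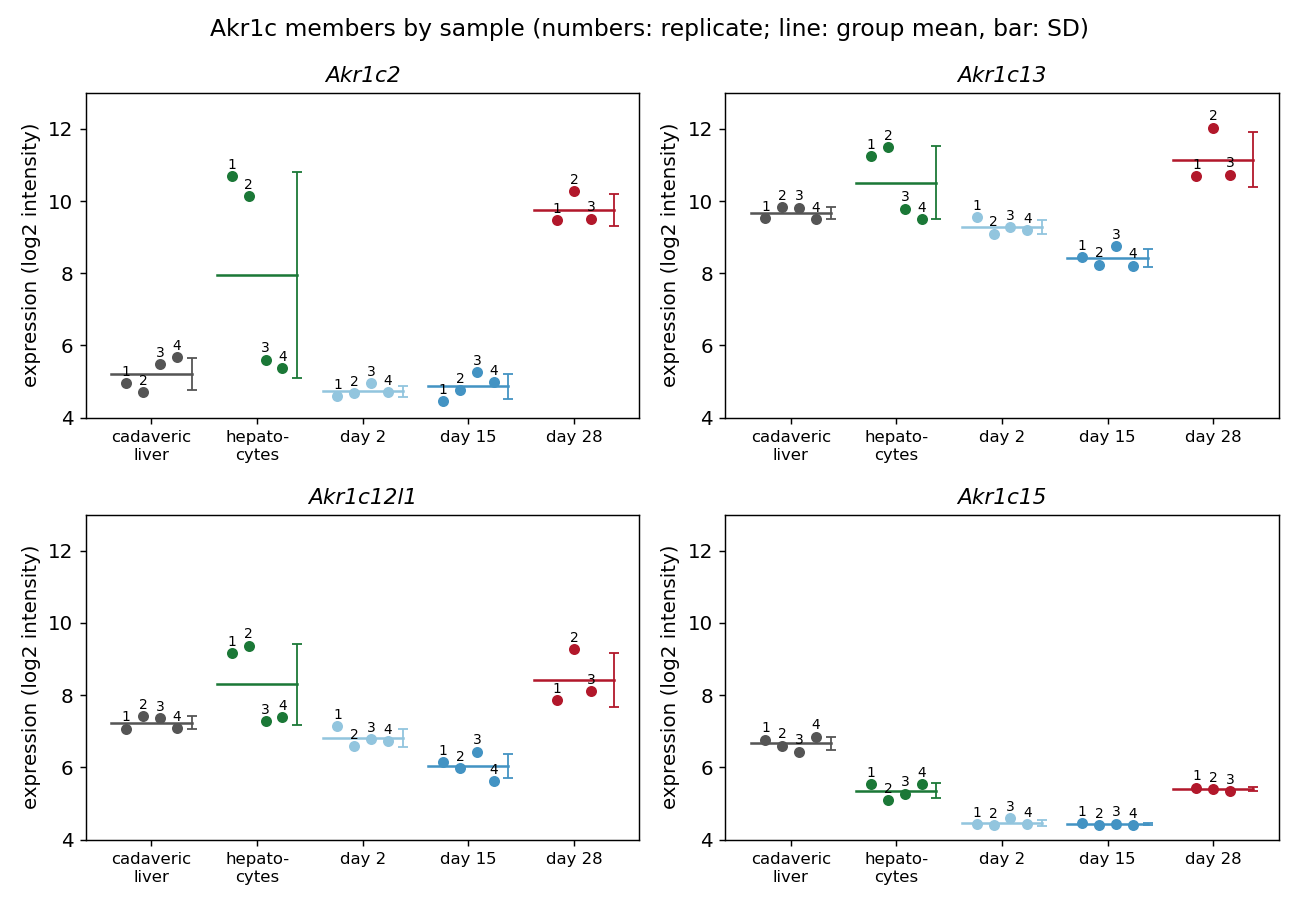
Log2 intensity of Akr1c2, Akr1c13, Akr1c12l1 and Akr1c15 (y axes) in each sample by group (x axis). Points are samples labelled with their replicate number, lines are group means and bars are SDs. Day 28 is above days 2 and 15 in all 4 panels, and hepatocyte replicates 1 and 2 are above replicates 3 and 4 in the panels of Akr1c2, Akr1c13 and Akr1c12l1 but not in that of Akr1c15.

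Akr1c15, a rat reductase of reactive aldehydes, had another order. It was highest in cadaveric liver, at 6.76, 6.60, 6.44 and 6.85. It fell to 5.53, 5.09, 5.27 and 5.53 in hepatocytes, where 3 of 4 arrays detected it. On day 2 it measured 4.43, 4.40, 4.59 and 4.42 and on day 15 4.46, 4.40, 4.44 and 4.40, and none of the 11 arrays of those days detected it. On day 28 it was detected again on 5 of 5 arrays, at 5.44, 5.39 and 5.34. The 3 day 28 values lay within the range of hepatocytes and below all 4 livers. A bound on the change was set by the lowest brightness called detected on each array. Against it, day 28 was at least 1.39-fold higher than day 15 and at least 1.29-fold higher than day 2, liver was at least 3.12-fold higher than day 2 and at least 3.36-fold higher than day 15, and hepatocytes at least 1.26-fold higher than day 2. The measured difference of day 28 from liver was -1.27.

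The profiles of the members over the 19 samples were compared by the root mean square difference of their values, each gene centred on its own mean. The values were not scaled, so the measure counts the size of a gene's changes as well as their course. A gene with the same course and larger changes can thus lie further away than one with another course. Akr1c13 and Akr1c12l1, the pair with similar promoters, differed by 0.19 log2 units, the closest of 36 pairs. Akr1c2 differed from them by 1.39 and 1.42, and Akr1c15 from them by 1.09 and 1.08. Neighbouring Akr1c genes can be similar enough for one transcript to bind another's probe, and the probe sequences were not used here, so how far the likeness of the pair comes from shared binding was not tested. Against the mean profile of the 4 Akr1c genes, the nearest of 9126 genes outside the family were Abcd2, a peroxisomal transporter of very long chain fatty acids, at 0.77, Fem1c, an adaptor of ubiquitin ligases, at 0.79, St6galnac3, a sialyltransferase, at 0.81, Agtr1a, the angiotensin II receptor, at 0.81, and Srpx at 0.83. All 5 were further away than Akr1c13 at 0.26 and Akr1c12l1 at 0.29, which had contributed to that mean. Akr1c2 itself lay at 1.25 and Akr1c15 at 1.08.

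**Figure D2:**
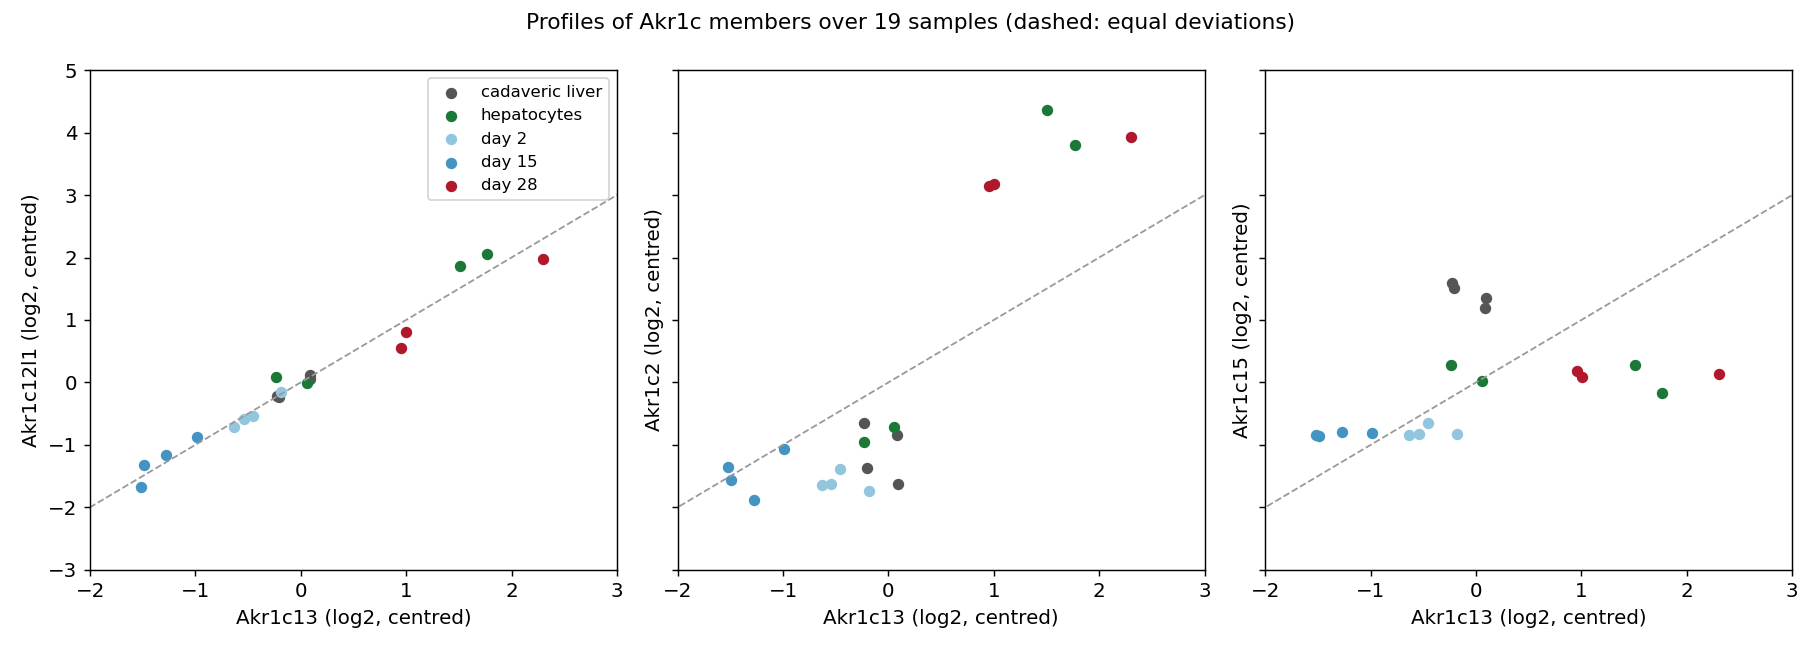
Deviation of Akr1c12l1, Akr1c2 and Akr1c15 from their own means (y axes, log2) against that of Akr1c13 (x axes, log2) in the 19 samples, coloured by group, with a dashed line of equal deviations. The points of Akr1c12l1 lie along the line (root mean square difference 0.19), those of Akr1c2 fall into a high and a low set, and liver stands above the line for Akr1c15.

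The only comparison that tested the 4 Akr1c genes was that of hepatocytes with cadaveric liver, which does not involve the constructs. Of the 9 members, among which Akr1b8 was at background in both groups, 1 was higher and 2 were lower at an adjusted p under 0.05 (limma, Benjamini-Hochberg over 9145 genes), beside 21.8% of all genes (10.9% in each direction). Akr1c2 was higher by 2.74 (SE 0.85, limma adjusted p = 0.027), but the hepatocyte values overlapped liver and the call was lost, with adjusted p = 0.13, when only these groups entered the fit. It was also lost without liver replicate 1 (0.058), liver replicate 2 (0.065), hepatocyte replicate 1 (0.097) or hepatocyte replicate 2 (0.098), all limma adjusted p-values. Akr1c15 was lower by 1.31 (SE 0.11, limma adjusted p = 3.1e-08), with no overlap. Akr1c13 measured 11.24, 11.50, 9.79 and 9.50 in the hepatocytes and Akr1c12l1 9.16, 9.37, 7.29 and 7.39, again with replicates 1 and 2 high and 3 and 4 at the level of liver. Their differences of 0.84 (SE 0.37) and 1.07 (SE 0.40) had limma adjusted p-values of 0.11 and 0.065. Without hepatocyte replicate 4 these became 0.023 and 0.022, and without hepatocyte replicate 3 that of Akr1c12l1 became 0.015. Akr1c19, the neighbour of Akr1c13, was split in the same samples, at 6.89, 7.05, 6.03 and 6.19.

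The class I genes varied over the same samples. RT1-CE16 measured 4.59 and 4.45 in hepatocyte replicates 1 and 2, the ones with high Akr1c2, and 7.88 and 7.47 in replicates 3 and 4. It measured between 6.80 and 7.38 in all 8 constructs of days 2 and 15, which had low Akr1c2, and 4.38, 4.56 and 4.46 in the 3 of day 28, which had high Akr1c2. In liver RT1-CE16 was 7.85, 7.16, 4.84 and 4.57, and Akr1c2 was 4.96, 4.71, 5.49 and 5.68. The livers with low RT1-CE16 thus had the higher Akr1c2, but Akr1c2 stayed at or below 5.68 in all 4. RT1-A2 measured 10.82, 4.60, 11.67 and 11.87 in hepatocytes, 11.34, 10.89, 5.05 and 11.68 in liver, 11.43 to 12.13 on days 2 and 15, and 4.55, 4.52 and 4.55 on day 28. Thus hepatocyte replicate 1 had high RT1-A2 and high Akr1c2 together. The part of donor in the Akr1c values was not tested, and for day 28 donor and day cannot be told apart.

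**Figure D3:**
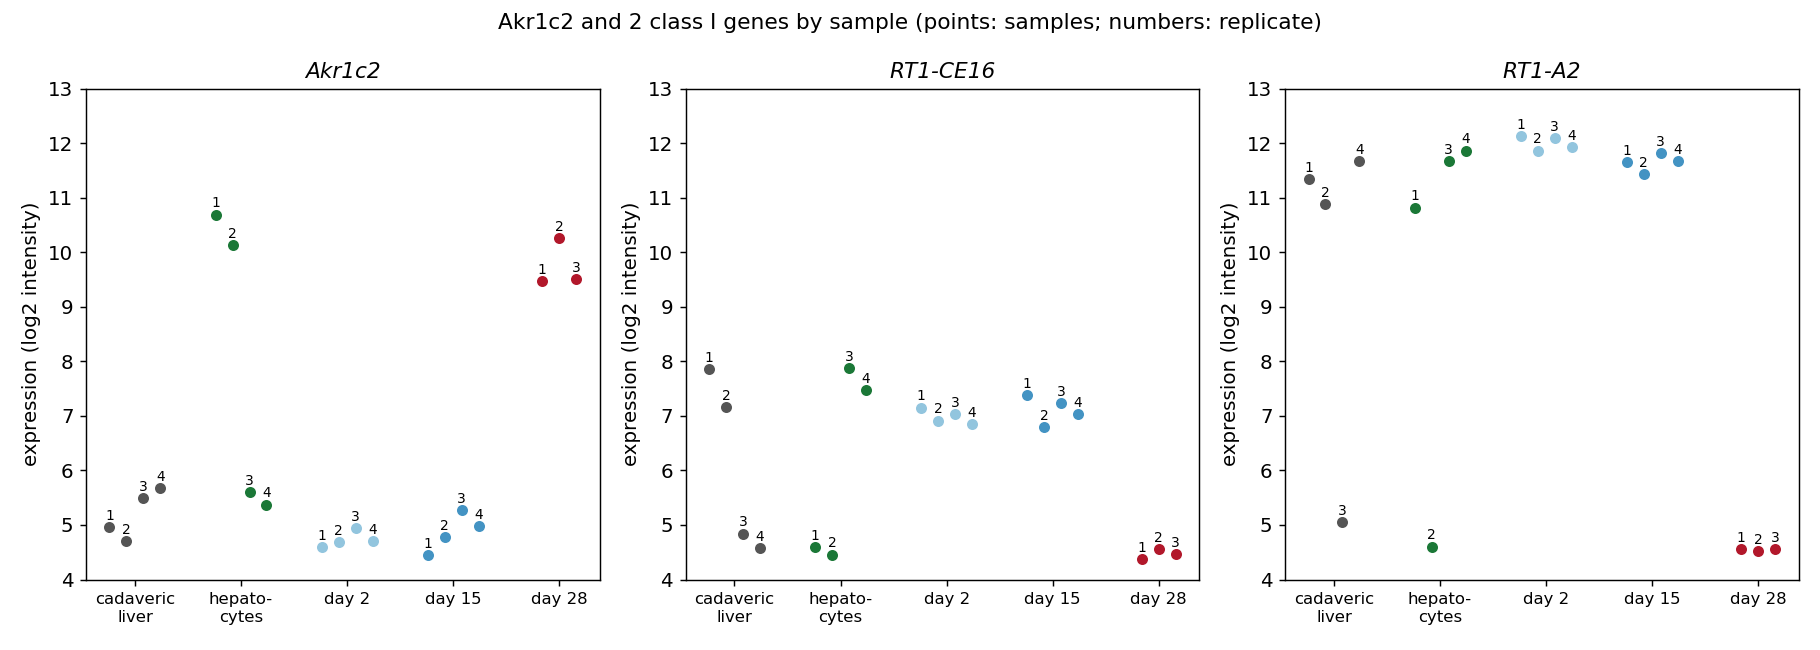
Log2 intensity of Akr1c2, RT1-CE16 and RT1-A2 (y axes) in each sample by group (x axis), with points labelled by replicate number. The 3 constructs of day 28 are high for Akr1c2 (9.48 to 10.26) and at background for both class I genes. Hepatocyte replicates 1 and 2 are high for Akr1c2 and low for RT1-CE16. Liver replicates 3 and 4 are low for RT1-CE16 and at 5.49 and 5.68 for Akr1c2, above liver replicates 1 and 2.

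Akr1b8, an aldose reductase-like enzyme that reduces lipid-derived aldehydes and is known in the mouse as a protein induced by fibroblast growth factor, was at background in liver and hepatocytes and present in every construct. It was detected on 0 of 4 liver arrays and 0 of 4 hepatocyte arrays, and on all 16 arrays of constructs. It measured 6.65, 7.67, 8.43 and 7.78 on day 2. It measured 8.69, 8.72, 6.99 and 7.03 on day 15 and 9.22, 8.05 and 8.33 on day 28. It passed the filter on detection through the constructs alone and so had to differ from liver and hepatocytes. For that reason these comparisons are given as bounds without a p-value. Against the detection limit in liver, day 2 was at least 6.22-fold higher, day 15 at least 7.27-fold and day 28 at least 11.6-fold. Day 2 was at least 5.53-fold above hepatocytes. Among the constructs the days overlapped, and neither day 15 against day 2 (0.23, SE 0.49, limma adjusted p = 0.73) nor day 28 against day 15 (0.67, SE 0.52, limma adjusted p = 0.46) passed. Day 28 against day 2 gave 0.90 (SE 0.52, limma adjusted p = 0.17).

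Akr1b1, aldose reductase, which turns glucose into sorbitol, fell on isolation and then climbed past its level in liver. It measured 9.89, 9.66, 10.00 and 10.16 in liver and 7.07, 7.49, 6.95 and 7.36 in hepatocytes. It measured 8.00, 8.24, 8.49 and 8.75 on day 2 and 11.38, 11.55, 11.04 and 10.87 on day 15. It measured 12.14, 11.61 and 11.33 on day 28. No 2 groups overlapped except days 15 and 28. Hepatocytes were lower than liver by 2.71 (SE 0.20, limma adjusted p = 7.9e-09). Day 2 was 1.16 above hepatocytes (SE 0.20, limma adjusted p = 6e-05). Day 15 was 2.84 above day 2 (SE 0.21, 7.15-fold, limma adjusted p = 3.8e-06) and day 28 was 3.32 above day 2 (SE 0.23, 10.0-fold, limma adjusted p = 2e-06). The step from day 15 to day 28 was 0.48 (SE 0.23, limma adjusted p = 0.21). Against liver, day 2 was lower by 1.55 and days 15 and 28 were higher by 1.28 and 1.77 (limma adjusted p = 1.8e-06, 2.1e-05 and 1.2e-06).

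Of 7 stellate cell and myofibroblast markers tested, 0 were higher and 6 lower than liver in hepatocytes (10.9% of all genes in each direction). On day 2 it was 0 higher and 5 lower (33.6% and 25.2% of all genes). Day 15 gave 3 higher and 2 lower (30.5% and 25.6%), and day 28 gave 6 higher and 1 lower (28.8% and 26.6%). Of the 11 listed 8 were on the array, and their summed intensity ran from 3112 to 6426 in liver, 391 to 537 in hepatocytes, 215 to 433 on day 2, 4455 to 35413 on day 15 and 19026 to 37073 on day 28. Tagln, Dcn, Col1a1, Lum and Rgs5 were undetected in hepatocytes, and Col3a1, Dcn, Col1a1, Lum and Rgs5 on day 2. On day 15 the sums of replicates 1 to 4 were 26349, 35413, 6161 and 4455, and both Akr1b1 and Akr1b8 were higher in the first pair than in the second. The second pair had sums within the range of liver and Akr1b1 at 11.04 and 10.87, above all livers. On day 28 the sums were 37073, 24119 and 19026, and replicate 1 was highest for both genes. On day 2, when the sums were no higher than in hepatocytes, Akr1b8 was present and Akr1b1 was 1.16 above hepatocytes. The part of these cells in either gene was not tested.

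Akr1a1, aldehyde reductase, which in rodents also serves ascorbate synthesis, was bright everywhere and moderately higher in constructs. It measured 12.40 to 12.59 in liver (median 12.47), 12.07 to 12.44 in hepatocytes (median 12.26), 12.95 to 13.23 on day 2 (median 13.02), 13.18 to 13.28 on day 15 (median 13.20) and 13.15 to 13.25 on day 28 (median 13.16). All 11 constructs lay above all 8 other samples. The differences from liver were 0.57 (SE 0.09), 0.73 (SE 0.09) and 0.70 (SE 0.10) on days 2, 15 and 28, with limma adjusted p-values of 1.9e-05, 1.1e-06 and 5.2e-06. The differences among days, of 0.16 at most, did not pass, and neither did that of hepatocytes from liver (-0.22, SE 0.09, limma adjusted p = 0.079).

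The Akr7a genes went in opposite directions on entering culture. Akr7a2, which reduces succinic semialdehyde and aflatoxin dialdehyde, measured 9.41, 9.56, 9.32 and 9.39 in liver and 9.45, 9.50, 9.36 and 9.26 in hepatocytes. It measured 8.10, 8.24, 7.75 and 8.03 on day 2, 8.83, 8.57, 8.83 and 8.93 on day 15 and 8.27, 8.51 and 8.52 on day 28. All constructs lay below all livers and hepatocytes. Day 2 was lower than liver by 1.39 (SE 0.11, limma adjusted p = 4e-09) and lower than hepatocytes by 1.36 (SE 0.11, limma adjusted p = 5.9e-09). The summed intensity of the hepatocyte markers was also lowest on day 2, at 117211 to 129541 against 162259 to 166318 in liver and 160731 to 170497 in hepatocytes, and its part in the differences of Akr7a2 and of the other genes lower on day 2 was not tested. Day 15 was 0.76 above day 2 (SE 0.12, limma adjusted p = 0.00042), a partial return, since it was still 0.63 below liver (limma adjusted p = 8.6e-05). Day 28 was 0.40 above day 2 (SE 0.13, limma adjusted p = 0.022), which was lost without day 2 replicate 3 (0.056), day 28 replicate 2 (0.074) or day 28 replicate 3 (0.073), and 0.99 below liver (limma adjusted p = 1.2e-06).

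Akr7a3, the rat aflatoxin aldehyde reductase that protects against that toxin and is known for its induction by antioxidants, was higher in constructs. It measured 8.57, 8.94, 8.77 and 9.67 in liver and 8.63, 9.30, 8.62 and 8.70 in hepatocytes. It measured 10.45, 11.39, 11.32 and 11.11 on day 2, 10.66, 9.92, 10.76 and 10.47 on day 15 and 9.90, 10.97 and 9.76 on day 28. All constructs lay above all livers and hepatocytes, and the days overlapped. Day 2 was 2.08 above liver (SE 0.29, 4.21-fold, limma adjusted p = 5.8e-06) and 2.25 above hepatocytes (limma adjusted p = 2.4e-06). Days 15 and 28 were 1.46 and 1.22 above liver (limma adjusted p = 3e-04 and 0.0028). Day 28 was lower than day 2 by 0.85 (SE 0.32, limma adjusted p = 0.039), a call that was lost with no filter on detection (0.066), with replicate number as a block (0.077), and without any one of day 2 replicates 2, 3 and 4 or day 28 replicates 1 and 3 (0.073 to 0.16).

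**Figure D4:**
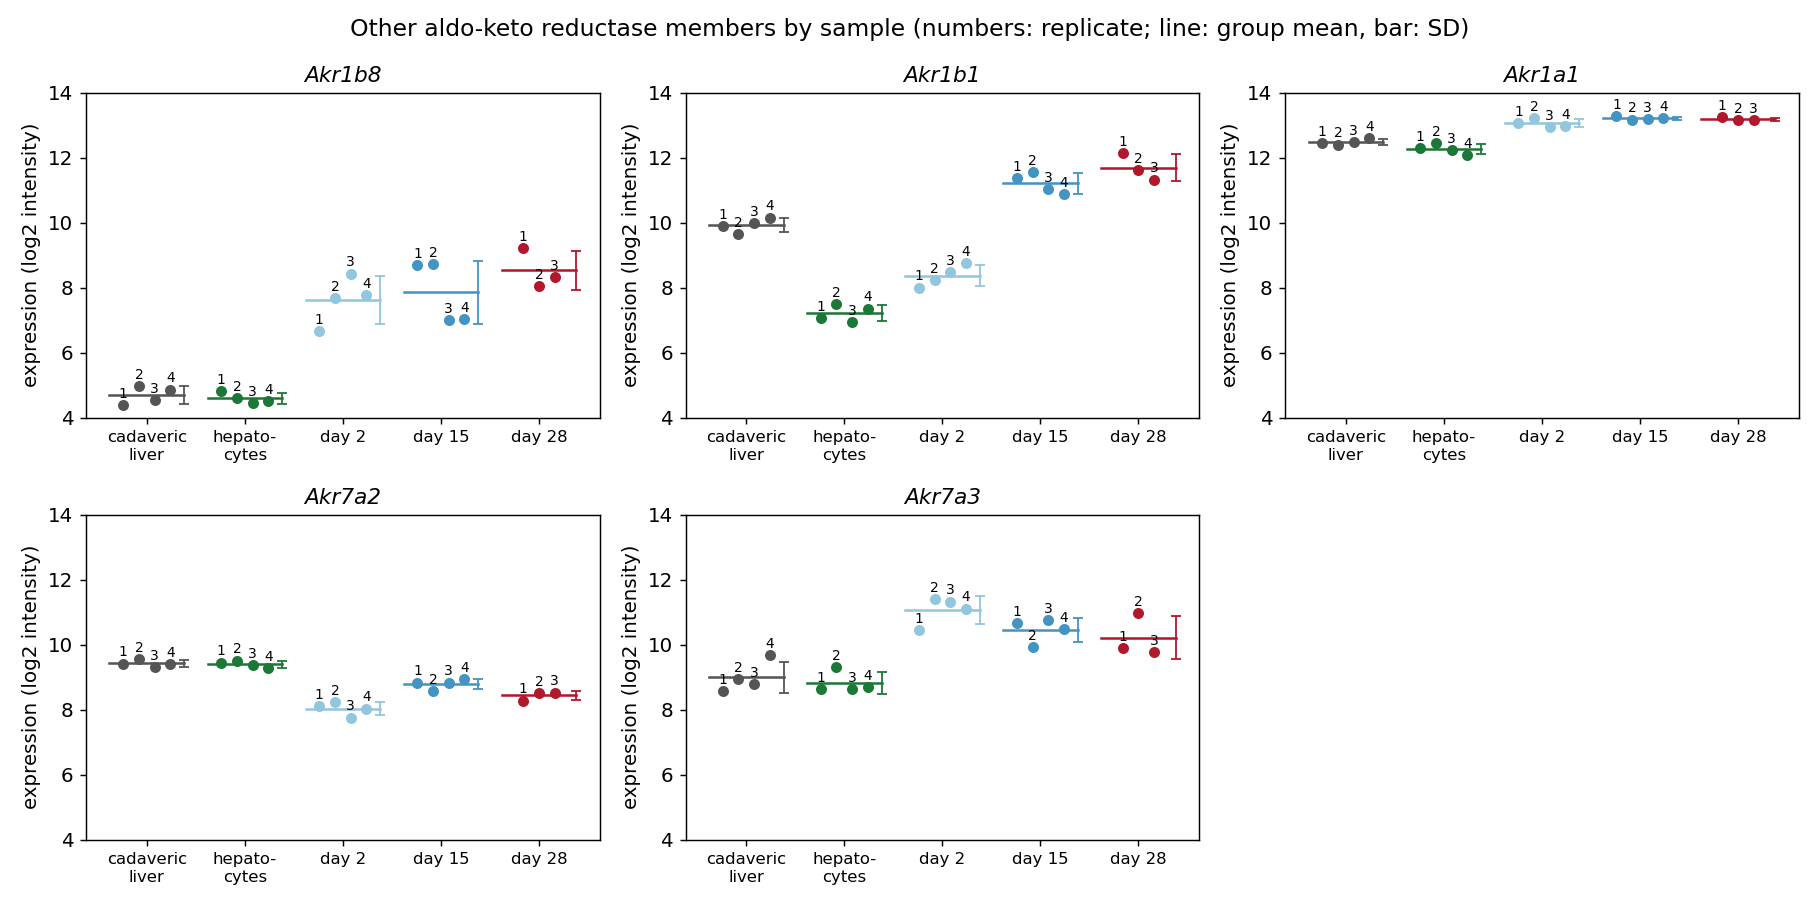
Log2 intensity of Akr1b8, Akr1b1, Akr1a1, Akr7a2 and Akr7a3 (y axes) in each sample by group (x axis), with points labelled by replicate number, group means as lines and SDs as bars. Akr1b8 rises from background to between 6.65 and 9.22 in constructs, Akr1b1 dips in hepatocytes and day 2, Akr7a2 is lower and Akr7a3 higher in all constructs than in liver.

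Of the 5 members taken as family only, Akr1b8 is left out of the counts against liver and hepatocytes, where it was undetected. Of the other 4, 2 were higher and 2 lower than liver on day 2, where 58.8% of all genes passed in either direction, 33.6% higher and 25.2% lower. On day 15 it was 3 higher and 1 lower than liver, beside 56.1% of genes (30.5% higher, 25.6% lower). On day 28 it was again 3 higher and 1 lower, beside 55.4% (28.8% higher, 26.6% lower). Against hepatocytes 3 were higher and 1 lower on day 2, beside 56.6% (31.7% higher, 24.9% lower). Over all 5, day 15 against day 2 gave 2 higher and 0 lower, beside 46.5% (20.2% higher, 26.3% lower). Day 28 against day 2 gave 2 higher and 1 lower, beside 54.9% (21.6% higher, 33.3% lower). Day 28 against day 15 gave 0 in either direction by limma, beside 8.8% (4.26% higher, 4.54% lower), and Akr7a2 and Akr1b1 had the lowest adjusted p-values there, 0.11 and 0.21. The comparisons with liver share the same 4 livers.

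**Figure D5:**
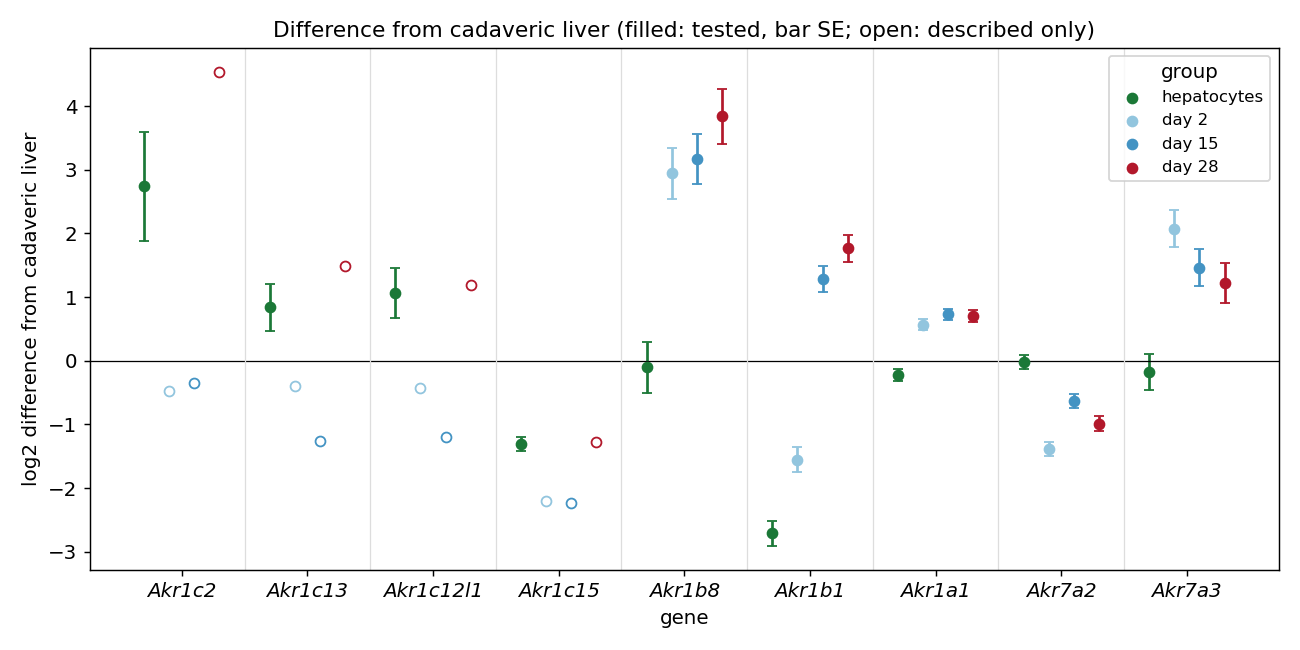
Log2 difference of each group mean from cadaveric liver (y axis) for the 9 members (x axis). Filled points were tested and carry their SE, and open points are descriptions of the 4 Akr1c genes. Points of Akr1b8 in constructs and of Akr1c15 on days 2 and 15 rest on a group at background, for which the text gives bounds. Day 28 is at 4.54 for Akr1c2, and below 0 for Akr1c15 and Akr7a2.

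Of 25 other aldo-keto reductases and related genes listed, 10 were tested with all groups and 9 in the constructs. On day 28 against day 2, 3 were higher and 0 lower (21.6% and 33.3% of all genes), with a list median of 0.10 beside -0.14 over all genes. Against liver, day 28 gave 1 higher and 4 lower (28.8% and 26.6% of all genes), with medians of -0.21 and -0.01. Akr1b7, known in the mouse for reducing aldehydes from steroid synthesis, measured 13.44 ± 0.21 in liver, fell by 4.44 on day 2 and was at 10.80 ± 0.18 (SD, n = 3) on day 28 (1.80 above day 2, SE 0.34, limma adjusted p = 0.0011). Akr1d1, the steroid 5 beta-reductase of bile acid synthesis, was on day 28 1.02 above day 2 (SE 0.20, limma adjusted p = 0.0013), and 1.13 below liver. Both genes were above day 2 already on day 15, Akr1b7 by 1.89 and Akr1d1 by 1.54 (limma adjusted p = 0.00061 and 7.2e-05). From day 15 to day 28 neither passed, with differences of -0.09 and -0.52 (limma adjusted p = 0.9 and 0.13). Akr1c19, inside the Akr1c cluster, was 1.36 above day 15 on day 28 (SE 0.29, limma adjusted p = 0.02) and 1.04 above day 2 (SE 0.29, limma adjusted p = 0.011), the only gene of this list to pass between days 15 and 28. It was lower in hepatocytes than in liver by 0.85 (SE 0.26, limma adjusted p = 0.027). Akr1c14, the 3 alpha-hydroxysteroid dehydrogenase at the other end of the cluster, lay at 12.90 ± 0.25 on day 28 and 13.29 ± 0.32 on day 15 (limma adjusted p = 0.17). Akr1c12 had a pair of probes that disagreed: ILMN_1358038 had group means between 12.28 and 12.66, with single livers from 11.27 to 13.58, while ILMN_1373236 had means of 10.12 in hepatocytes, 7.50 on day 2 and 9.41 on day 28.

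Enzymes with related chemistry, listed with earlier results of these data known, divided. Among 34 other carbonyl reductases and hydroxysteroid dehydrogenases tested, 6 passed upward and 8 downward from day 2 to day 28, or 41.2% beside 54.9% of all genes (median -0.08 beside -0.14). Cbr3, a carbonyl reductase, was 2.70 higher (SE 0.37, limma adjusted p = 0.00012), while Ptgr2, a prostaglandin reductase, was lower by 0.96 and Rdh10, which makes retinal from retinol, lower by 1.39 (limma adjusted p = 0.00018 and 0.00095). In hepatocytes against liver 2 of the 34 were higher and 4 lower (10.9% of all genes in each direction), among them Hsd17b2, which inactivates sex steroids, lower by 1.36, and Hsd3b7, a bile acid synthesis enzyme, lower by 0.45 (limma adjusted p = 0.0036 and 0.0043). Of 13 alcohol and aldehyde dehydrogenases, 2 were higher and 9 lower than liver on day 28 (28.8% and 26.6% of all genes, median -1.55 beside -0.01 over all genes). From day 2 to day 28, 1 was higher and 3 lower, or 30.8% beside 54.9% of all genes. Adh4 fell by 1.27, Aldh9a1 by 0.69 and Aldh5a1, which oxidizes the succinic semialdehyde that Akr7a2 reduces, by 1.08 (limma adjusted p = 1.8e-05, 0.00051 and 0.00094). In hepatocytes Aldh1a3 was lower than in liver by 0.95 and Adh4 higher by 0.37 (limma adjusted p = 0.00013 and 0.031).

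Among 36 tested targets and regulators of NRF2, the transcription factor that drives many aldo-keto reductases in response to electrophiles, 18 were higher and 5 lower than liver on day 2, where 33.6% and 25.2% of all genes were. On day 15 it was 23 and 2 (30.5% and 25.6% of all genes), and on day 28 17 and 4 (28.8% and 26.6%). From day 15 to day 28, the step in which the Akr1c genes were higher, 0 were higher and 2 lower (4.26% and 4.54% of all genes, median -0.20 beside -0.06). From day 2 to day 28, 12 were higher and 10 lower (21.6% and 33.3% of all genes). Gpx2, a glutathione peroxidase, was 2.42 higher (limma adjusted p = 1.1e-05), whereas Ugt1a6, a glucuronosyltransferase, fell by 2.04 and Txnrd1, thioredoxin reductase, fell by 0.73 (limma adjusted p = 3.2e-05 and 0.00035). In hepatocytes 4 were higher and 1 lower than in liver (10.9% of all genes in each direction). Maff, a small MAF protein, was 2.63 higher and Gstp1, a glutathione transferase, lower by 2.22 (limma adjusted p = 3.7e-07 and 3.6e-05). The part of NRF2 in the members' values was not tested. Of the polyol and fructose pathway that starts with Akr1b1, 2 of 5 genes were tested. Sord, which oxidizes sorbitol, and Khk, which phosphorylates fructose, were both lower than liver in constructs of each day. From day 2 to day 28 Khk was lower by 0.88 (limma adjusted p = 0.011), while Sord differed by 0.22 (limma adjusted p = 0.28), and in hepatocytes against liver the differences were 0.06 and 0.31 (limma adjusted p = 0.89 and 0.12).

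Other cells of the liver differed between liver and hepatocytes, the comparison in which Akr1c15 and Akr1b1 were lower. The summed intensity of 8 Kupffer cell and macrophage markers was 6959 to 12034 in liver and 2035 to 2419 in hepatocytes, and that of 4 endothelial markers 1689 to 2013 and 419 to 661, with Vwf and Cdh5 undetected in hepatocytes. On day 28, when Akr1c15 was detected again, these sums were 1319 to 2145 and 98 to 104, below all livers. The 3 cholangiocyte markers summed to 616 to 1173 in liver, 502 to 634 in hepatocytes, 769 to 944 on day 2, 3550 to 5371 on day 15 and 2912 to 3172 on day 28. Against liver, 1 of the 3 was higher and 2 lower on day 2 (33.6% and 25.2% of all genes). On day 15, 1 was higher and 0 lower (30.5% and 25.6%), and on day 28 again 1 and 0 (28.8% and 26.6%). Sums of 4 lymphocyte markers were at most 111 in constructs. The part of these cells in the members' differences was not tested.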

How the data were processed

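RNA from rat liver, isolated hepatocytes and liver constructs was hybridized to RatRef-12 BeadChips. The files deposited by the authors hold, per probe and array, a bead-level intensity summary with its detection p-value. The deposited log2 values, which were used, came from background correction and quantile normalization in limma, of unstated version. Replicate numbers of the intensity columns differ from the sample records on 14 of 24 arrays, within groups, so detection is given per group of arrays. The number of arrays limits the precision. Technical duplicates of 5 constructs were averaged, giving 19 samples. Genes were named from the platform annotation (13793 of 22523 probes), and 842 control probes were left out. Probes detected at p under 0.05 on at least 3 arrays were kept, and the brightest stood for its gene. Groups were compared with limma (R 4.3.3, limma 3.58.1) over the 3 construct days (8753 genes) or all 5 groups (9145 genes), with Benjamini-Hochberg adjustment, and the procedure was tested on simulated data. Lower bounds of folds used, per array, the lowest value called detected or the probe's own if higher. Members and gene lists were chosen with earlier results of these data known. Named genes were all members, the 3 of each pathway list with the lowest adjusted p on day 28 against day 2 and the 2 in hepatocytes against liver, and the 5 nearest profiles, and Akr1c12, Akr1c14, Akr1c19 and RT1 genes were added after their values were seen. Alternatives covered filters, probes per gene, duplicates, background correction, samples in the fit, a replicate block and leaving out each sample.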

Additional observations from a re-analysis of the deposited data

Results flagged for a closer look

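In 40 groups of 4 samples over the 10 probes, 2 held a sample farther from the others than Dixon's 95% limit, and chance alone gives about 1 in 20. Akr1c15 on day 2 measured 4.59 in replicate 3 against 4.43 in the nearest sample, both at background. Akr7a3 in hepatocytes measured 9.30 in replicate 2 against 8.70 in the nearest, and this sample was within the range of liver.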

How the results depend on the processing

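Counts of genes called stayed within 1.5 times of the reported ones under all alternatives for 7 of 8 comparisons. The exception was day 28 against day 15, with 770 genes, 1638 with no background correction and arrays not averaged, 346 with a replicate block, and 277 to 1228 when single samples were left out (1228 without day 15 replicate 2, 277 without day 28 replicate 1). The cause was not tested. Whether replicate numbers pair the samples is not stated in the sources. Deviations of same-numbered samples correlated above 0.1 in 5 of 36 pairs (-0.28 to 0.27), which cannot decide it with so few samples per group. With a replicate block the only member whose call was lost was Akr7a3 on day 28 against day 2. Among the members tested, directions turned for differences that had not passed. With single samples left out, hepatocytes minus liver ran from -0.062 to 0.021 for Akr7a2 and from -0.34 to 0.050 for Akr7a3, and day 15 minus day 2 from -0.10 to 0.52 for Akr1b8. Among those described without a test, day 15 minus day 2 ran from -0.0017 to 0.27 for Akr1c2 and from -0.055 to 0.0086 for Akr1c15, both near background. With no background correction and arrays not averaged, 2 choices changed together, the day 28 differences of Akr1c2 were 3.53 from liver, 3.75 from day 15 and 3.80 from day 2, smaller than reported and in the same direction. Of the tests of members, 12 lost and 6 gained a call with a sample left out, and 3 lost and 6 gained one under other settings. Signal over background limits the folds of Akr1c2, Akr1c15 and Akr1b8, which were undetected on some or all arrays of at least 1 group.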
